A study of Mus musculus with 18 samples.

Results

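Mitochondria are moved, fused and divided by a small set of proteins, and the 10 genes described here encode the best known of them. Rhot1 and Rhot2 encode Miro1 and Miro2, GTPases of the outer membrane that tie the organelle to its motors, and Trak1 and Trak2 encode the adaptors that link Miro to kinesin and dynein. Mfn1 and Mfn2 encode the mitofusins, which join outer membranes, and Opa1 encodes the dynamin-like GTPase that joins inner membranes. Dnm1l encodes Drp1, the dynamin that constricts mitochondria during fission, and Fis1 and Mff encode outer membrane proteins that take part in bringing it there. A cone photoreceptor packs its mitochondria densely into the inner segment, while its synapse lies at the other end of the cell.

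The members were taken by name from the 54532 genes counted in each library. The list was chosen by a measured value, the lower Rhot1 with Txnip in BALB/c in these same libraries, so the BALB/c values of Txnip against control are given for all 10 genes as a description with no test. The contrast of Txnip effects between strains uses those values too and is treated the same way. The difference of Rhot1 between strains is also given with no test, since the BALB/c values of Rhot1 took part in its choice. The effect of Txnip in C57BL/6J was tested for all 10 genes and the difference between strains in control cones for the other 9, although earlier results of these libraries were known when the list was drawn up.

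Cones were sorted from WT mouse retinas, and each of 18 libraries held the RNA of 1000 cones from 1 retina, amplified as full-length cDNA. BALB/c is an albino strain and its cones were taken at postnatal day 21, with 6 control and 6 Txnip libraries. C57BL/6J is pigmented and its cones were taken at postnatal day 35, with 3 control and 3 Txnip libraries. By the authors' account, the Nnt gene is null in C57BL/6J mice but not in BALB/c mice. All retinas were injected at birth with AAV8-SynP136-H2BGFP, whose green fluorescent histone marks cones for sorting, and this was the only vector in the control retinas. Txnip retinas also received AAV8-RedO-Txnip, in which the red opsin promoter drives Txnip, an α-arrestin that limits glucose uptake and binds thioredoxin, in cones. Strain and age go together here and cannot be told apart. The labels do not say which retinas came from the same mouse. The spread between libraries may therefore be partly technical and may understate that between mice. Each retina was treated as independent, so the SEs and p-values may be too small.

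The counts over all genes summed to between 647712 and 5172156 per library, where a read pair that overlapped several genes counts once for each, and Txnip itself had 0 to 3 counts in each control library and 663 to 8536 in each Txnip library. All 12 cone markers had counts in every library. The C57BL/6J control 1 and C57BL/6J Txnip 2 libraries stood apart, with 1.39% and 0.956% of counts on the rod markers other than Sag against 0.108% to 0.280% in the other 16, so results that involve C57BL/6J are also given without this pair where they change. Levels are CPM, counts scaled to the TMM-normalised size of each library, and differences are log2 values from edgeR with their standard error (SE). A gene is called when edgeR's quasi-likelihood test gives it an adjusted p under 0.05.

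Promoter sequences are shown for the 3 members on which the results turn, Rhot1 for its values with Txnip and Dnm1l and Mfn1 for their difference between strains. They are RefSeq windows on GRCm38.p6 from 250 bases before to 50 bases after a transcript start, written 5′ to 3′ on the gene's strand. Rhot1 lies on the plus strand (chr11:80208801-80209100), Dnm1l on the minus strand (chr16:16358982-16359281) and Mfn1 on the plus strand (chr3:32529232-32529531). Capitals mark matches, on either strand, to the GC box GGGCGG, the CCAAT box CCAAT and the ETS motif CCGGAAG.
Rhot1: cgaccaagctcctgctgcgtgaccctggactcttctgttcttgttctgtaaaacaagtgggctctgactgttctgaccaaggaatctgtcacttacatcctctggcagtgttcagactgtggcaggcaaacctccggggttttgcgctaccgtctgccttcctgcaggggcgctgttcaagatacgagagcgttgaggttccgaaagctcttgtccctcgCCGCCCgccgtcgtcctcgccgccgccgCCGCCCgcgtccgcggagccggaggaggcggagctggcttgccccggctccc
Dnm1l: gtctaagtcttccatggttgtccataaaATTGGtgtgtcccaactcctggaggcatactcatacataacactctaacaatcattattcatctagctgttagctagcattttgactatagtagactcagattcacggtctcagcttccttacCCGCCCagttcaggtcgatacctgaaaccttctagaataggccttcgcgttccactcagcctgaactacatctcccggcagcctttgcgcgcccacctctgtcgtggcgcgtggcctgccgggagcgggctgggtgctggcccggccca
Mfn1: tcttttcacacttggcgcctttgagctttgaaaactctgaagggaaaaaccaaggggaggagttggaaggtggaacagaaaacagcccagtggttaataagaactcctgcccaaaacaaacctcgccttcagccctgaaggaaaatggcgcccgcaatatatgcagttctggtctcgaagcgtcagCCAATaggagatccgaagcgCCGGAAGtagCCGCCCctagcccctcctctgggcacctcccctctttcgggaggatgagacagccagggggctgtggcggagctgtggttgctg
The Rhot1 window held 2 GC boxes, the Dnm1l window 1 GC box and 1 CCAAT box, and the Mfn1 window 1 of each of the 3 motifs. The 3 motifs do not overlap one another in these windows. The E-box CACGTG and the CRX motif TAATCC were also searched and had no match in the 3 windows. All 10 members matched at least 1 RefSeq window, and the GC box was in windows of 10 of 10 members, the CCAAT box in 6, the ETS motif in 4, the CRX motif in 2 (Fis1 and Trak1) and the E-box in 0. Counted the same way, in any window of a gene, the shares over all 27025 genes with a window were 38.2% for the GC box, 41.1% for the CCAAT box, 9.93% for the ETS motif, 8.14% for the CRX motif and 8.09% for the E-box. Per window, over all 32851 windows, they were 35.7%, 37.4%, 8.86%, 7.06% and 7.15%. Some members have several windows, so a gene counted here can lack the motif in the window printed above. These are matches of letters and say nothing of binding in cones.

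All 10 members were measured in all 18 libraries, with at least 14 counts each. Per kb of exon, Rhot1 had the highest level in BALB/c control cones, at 89.7 ± 13.0 CPM per kb (SD, n = 6), and ranked 424 of the 14751 genes tested over all libraries. Rhot2 followed at 60.9 ± 16.9 CPM per kb, then Fis1 at 51.3 ± 9.95, Dnm1l at 40.7 ± 5.16 and Mfn2 at 37.2 ± 4.48. Each of these 5 overlapped its neighbour in the range over libraries. Trak2 at 23.2 ± 4.45 CPM per kb and Mff at 18.6 ± 1.94 lay below all Mfn2 values and overlapped each other, Trak1 at 8.85 ± 1.04 lay below all Mff values, and Opa1 at 5.09 ± 0.799 and Mfn1 at 3.56 ± 0.877 were the lowest. The Miro genes were more abundant per length than Trak1, and Mfn2 more than Mfn1, in every library.

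**Figure D1:**
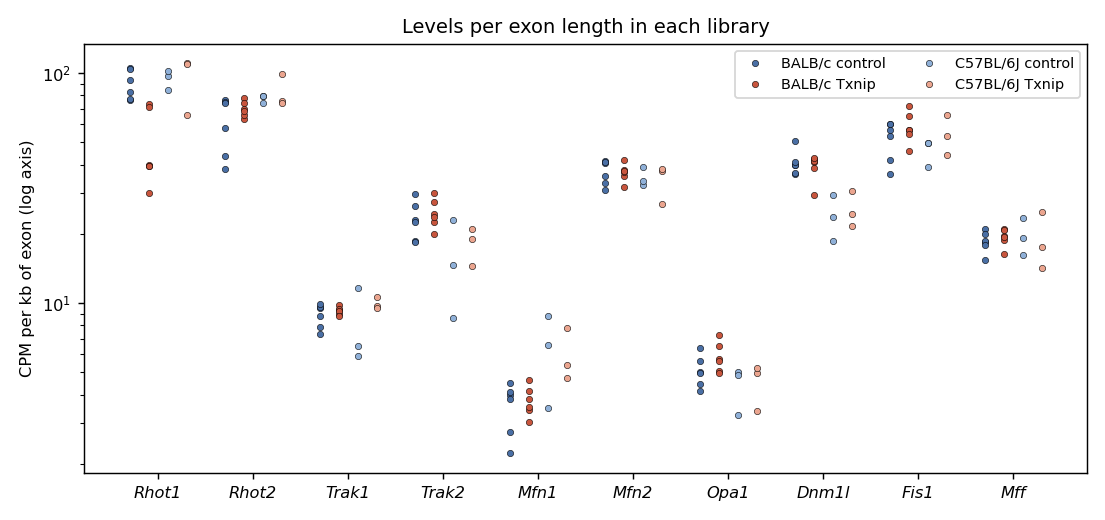
CPM per kb of exon (log axis) of the 10 members, with 1 point for each of 18 libraries in the 4 groups. Rhot1 and Rhot2 lie between 30.1 and 110.1 in all libraries, and Opa1 and Mfn1 have the lowest group means in all 4 groups, with Trak1 overlapping Mfn1 in C57BL/6J controls.

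In C57BL/6J control cones Rhot1 was again the highest at 94.5 ± 8.93 CPM per kb (SD, n = 3; rank 420), and its 3 libraries lay above those of Rhot2 at 77.6 ± 3.17. Fis1 at 46.1 ± 6.06, Mfn2 at 35.2 ± 3.43 and Dnm1l at 24.0 ± 5.49 CPM per kb came next, each without overlap, so Mfn2 stood above Dnm1l here. Dnm1l, Mff, Trak2, Trak1, Mfn1 and Opa1 followed in that order, and each overlapped the next. With Txnip in BALB/c, the order of the first 3 was Rhot2 at 69.7 ± 5.31 CPM per kb (n = 6), Fis1 at 58.3 ± 9.15 and Rhot1 at 48.9 ± 18.5, with overlapping ranges. The level per length depends on the annotated exon length, which runs from 1714 bases for Fis1 to 12568 bases for Trak1.

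Some counts are shared with other genes, since a read pair was counted for each gene whose exons it overlapped and strand was not used. Rhot2 (ENSMUSG00000025733, chromosome 17) shares 1388 of its 4442 exonic bases with other genes, 1307 of them with Gm20683 on the same strand, whose count was 70.1% to 77.0% of the Rhot2 count in each library. Rhot2 values are therefore uncertain as to which of these transcripts they measure. Dnm1l shares 243 of 5203 exonic bases with the antisense gene Gm49521, and Mff shares 195 of 9757 with C430014B12Rik. Dnm1l also has a processed pseudogene, Gm13719, that aligns over 2153 bases at 91.1% identity. Rhot1 (ENSMUSG00000017686), which spans chr11:80209019-80267907 on GRCm38, shares no exonic base with another gene.

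Rhot1, the Miro1 gene, had 538, 746, 546, 658, 734 and 584 CPM in the BALB/c control libraries 1 to 6. In the BALB/c Txnip libraries 1 to 6 it had 522, 502, 282, 213, 279 and 279 CPM. All 6 Txnip libraries lay below all 6 controls, with the gap between 522 and 538 CPM small. Libraries Txnip 1 and 2 lay close to the controls, and the other 4 were well below. The group means were 346 ± 131 CPM with Txnip and 634 ± 92.1 CPM in controls (SD, n = 6 each), a log2 difference of -0.86 (SE 0.18) or 0.550 of the control level. Rhot1 was chosen for this difference. Across the 12017 genes tested in BALB/c, edgeR called 0.0166% of genes (2 genes, both higher), and no test result is given for the members there. Single libraries moved this count: it was 258 without Txnip 1 (16 higher and 242 lower), 23 without control 1 (10 higher and 13 lower) and 6 without Txnip 2 (2 higher and 4 lower). Groups that did not overlap made up 0.383% of all genes tested with Txnip lower and 0.316% with Txnip higher.

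In C57BL/6J, Rhot1 had 599, 685 and 722 CPM in the control libraries 1 to 3 and 779, 465 and 771 CPM in the Txnip libraries 1 to 3. The Txnip libraries lay on both sides of the controls, 2 above all of them and 1 below. The means were 669 ± 63.2 CPM in controls and 672 ± 179 CPM with Txnip (SD, n = 3 each). The log2 difference was -0.0016 (SE 0.25, 95% interval -0.56 to 0.56, adjusted p = 1.00 by edgeR), so a change of up to about that interval could not be told from none with 3 libraries a group. The low library, Txnip 2, was also one of the pair with high rod marker shares and had the lowest Txnip level of the C57BL/6J Txnip libraries, 821 CPM against 1865 and 1969. Without that pair the log2 difference was 0.12 (SE 0.24). The Txnip effect on Rhot1 was higher in C57BL/6J than in BALB/c by 0.87 on the log2 scale (SE 0.33), which is a description since it holds the BALB/c values. Across all 14751 genes edgeR called 0 for a difference of this kind (0.0%), with 706 (4.79%) at an unadjusted p under 0.05, and DESeq2 called 0.

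The libraries differed in other measures that were set beside Rhot1. The locus of ribosomal RNA took 6.00% to 8.70% of counts in BALB/c control libraries 2, 4 and 5, whose Rhot1 was 658 to 746 CPM. It took 15.0% to 15.7% in BALB/c control libraries 1, 3 and 6, whose Rhot1 was 538 to 584 CPM. The BALB/c Txnip libraries had shares of 11.99% to 16.3% and Rhot1 at 213 to 522 CPM. In C57BL/6J controls 1 to 3 the share was 3.27%, 27.5% and 6.44%, beside Rhot1 at 599, 685 and 722 CPM. In C57BL/6J Txnip libraries 1 to 3 it was 5.70%, 26.9% and 20.2%, beside 779, 465 and 771 CPM. With this share as a covariate the log2 difference of Rhot1 in BALB/c was -0.74. The summed share of the 12 cone markers was 5.11% to 6.67% in BALB/c controls and 4.75% to 5.63% with Txnip. The summed share of the 8 amacrine cell markers was 0.0392% to 0.0603% in BALB/c controls and 0.0618% to 0.0766% with Txnip, so that these groups did not overlap, with counts for 6 of the 8 markers in every control library and for 8 in every Txnip library. In bulk RNA, fewer cells of a type and less RNA per cell cannot be told apart. Among BALB/c Txnip libraries, those with Rhot1 at 522 and 502 CPM had Txnip at 1296 and 1210 CPM, and the other 4 had Txnip at 1027 to 1414 CPM. The 3 deepest of them, with 2685778 to 4699750 counts in all, had Rhot1 at 282 to 522 CPM, and the 3 shallowest, with 647712 to 1517534 counts, had 213 to 279 CPM. The deepest BALB/c Txnip library, Txnip 3, had Rhot1 at 282 CPM, and the shallowest, Txnip 6, at 279 CPM. The BALB/c controls had 1723214 to 5172156 counts. Rhot1 was 746 and 538 CPM in the shallowest of them, controls 2 and 1, and 584 CPM in the deepest, control 6. The part of the ribosomal RNA share, of other cells, of Txnip level and of depth in the Rhot1 values was not tested.

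**Figure D2:**
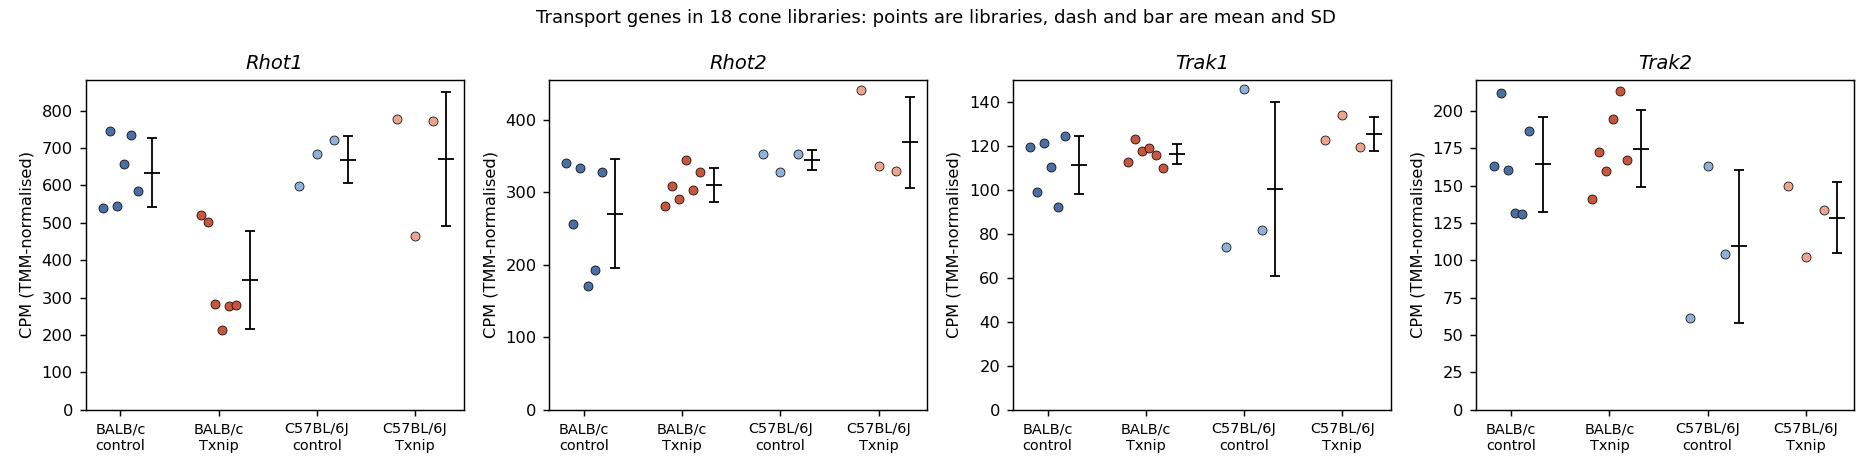
CPM of Rhot1, Rhot2, Trak1 and Trak2 in each of 18 libraries by group, with the mean and SD beside the points. Rhot1 in the BALB/c Txnip libraries runs from 213 to 522 CPM, below the 538 to 746 CPM of the BALB/c controls, while the other 3 genes overlap between Txnip and control in both strains.

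Rhot2, the paralogue that encodes Miro2, had a lowest, median and highest level of 171, 292 and 340 CPM in BALB/c controls and 282, 306 and 345 CPM with Txnip. These ranges overlapped, and the log2 difference was 0.19 (SE 0.15). The 3 BALB/c controls with little ribosomal RNA had the lowest Rhot2, 171 to 256 CPM, and the other 3 had 328 to 340 CPM. With the ribosomal RNA share as a covariate the difference became -0.074. In C57BL/6J, Rhot2 had 353, 328 and 353 CPM in controls and 442, 336 and 329 CPM with Txnip, a log2 difference of 0.092 (SE 0.20, adjusted p = 1.00 by edgeR).

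The ratio of Rhot1 to Rhot2 per length, taken within each library, was 1.63 ± 0.672 (SD, n = 6) in BALB/c controls and 0.715 ± 0.305 in BALB/c Txnip cones. The ranges of these ratios, 0.995 to 2.42 and 0.388 to 1.16, overlapped. In C57BL/6J the ratio was 1.22 ± 0.134 in controls and 1.15 ± 0.304 with Txnip (SD, n = 3 each). The ratio was below 1 in 4 of 6 BALB/c Txnip libraries, which restates the lower Rhot1.

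The adaptor genes, whose products bind Miro, overlapped between Txnip and control in both strains. Trak1 had a lowest, median and highest level of 92.3, 115 and 125 CPM in BALB/c controls and 110.0, 117 and 123 CPM with Txnip, a log2 difference of 0.065 (SE 0.091). Trak2 had 131, 162 and 212 CPM in BALB/c controls and 141, 170.0 and 213 CPM with Txnip, a log2 difference of 0.080 (SE 0.12). In C57BL/6J, Trak1 had 73.8, 146 and 81.5 CPM in controls and 122, 134 and 120 CPM with Txnip, and the difference of 0.32 (SE 0.28, 95% interval -0.31 to 0.94) had an adjusted p of 1.00 by edgeR. This Trak1 value ran from 0.14 without control 1 to 0.69 without control 2, and was 0.17 without control 3 and 0.070 without the pair with high rod marker shares. Trak2 had 61.2, 163 and 104 CPM in C57BL/6J controls and 149, 102 and 134 CPM with Txnip, with a difference of 0.23 (SE 0.33, adjusted p = 1.00 by edgeR). Control 2 was the highest of the C57BL/6J controls for both adaptors. The ratio of Trak1 to Trak2 per length was 0.392 ± 0.0709 in BALB/c controls and 0.382 ± 0.0519 with Txnip (SD, n = 6 each), and 0.542 ± 0.123 and 0.567 ± 0.149 in C57BL/6J (SD, n = 3 each).

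The 3 fusion genes had small log2 differences with Txnip, and their ranges overlapped in both strains. In BALB/c the log2 difference was 0.052 (SE 0.18) for Mfn1, -0.014 (SE 0.093) for Mfn2 and 0.16 (SE 0.13) for Opa1. Mfn2, the most abundant of them, ran from 162 to 215 CPM in BALB/c controls and from 166 to 218 CPM with Txnip. Opa1 ran from 32.6 to 50.01 CPM in controls and from 39.0 to 57.3 CPM with Txnip. In C57BL/6J the differences were -0.081 (SE 0.34) for Mfn1, -0.048 (SE 0.21) for Mfn2 and 0.045 (SE 0.27) for Opa1, none of which was called. The 3 fission genes likewise overlapped between Txnip and control in both strains. In BALB/c the log2 difference was -0.042 (SE 0.098) for Dnm1l, 0.18 (SE 0.13) for Fis1 and 0.052 (SE 0.089) for Mff. In C57BL/6J it was 0.096 (SE 0.24) for Dnm1l, 0.23 (SE 0.21) for Fis1 and -0.062 (SE 0.24) for Mff.

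Over the 10 members, 0 were called in C57BL/6J by edgeR, against 0.0154% of the 12974 genes tested (2 genes), and 0 by DESeq2, against 0.00565%. For edgeR, 0 members had an unadjusted p under 0.05 against 0.748% of all genes. Groups that did not overlap made up 2.22% of all genes with Txnip higher and 2.2% with Txnip lower, and 0 of the members in either direction. The median log2 difference with Txnip was 0.068 over the members and 0.012 over all genes. In BALB/c it was 0.058 over the members and 0.00024 over all genes, with 7 members higher and 3 lower with Txnip. Leaving out 1 library could turn the BALB/c sign of Mfn1 (-0.043 to 0.14), Mfn2 (-0.061 to 0.024) and Dnm1l (-0.074 to 0.034). The 95% intervals in C57BL/6J reached at least 0.42 on the log2 scale in the higher direction for each member, so changes of that size were not detectable there.

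**Figure D3:**
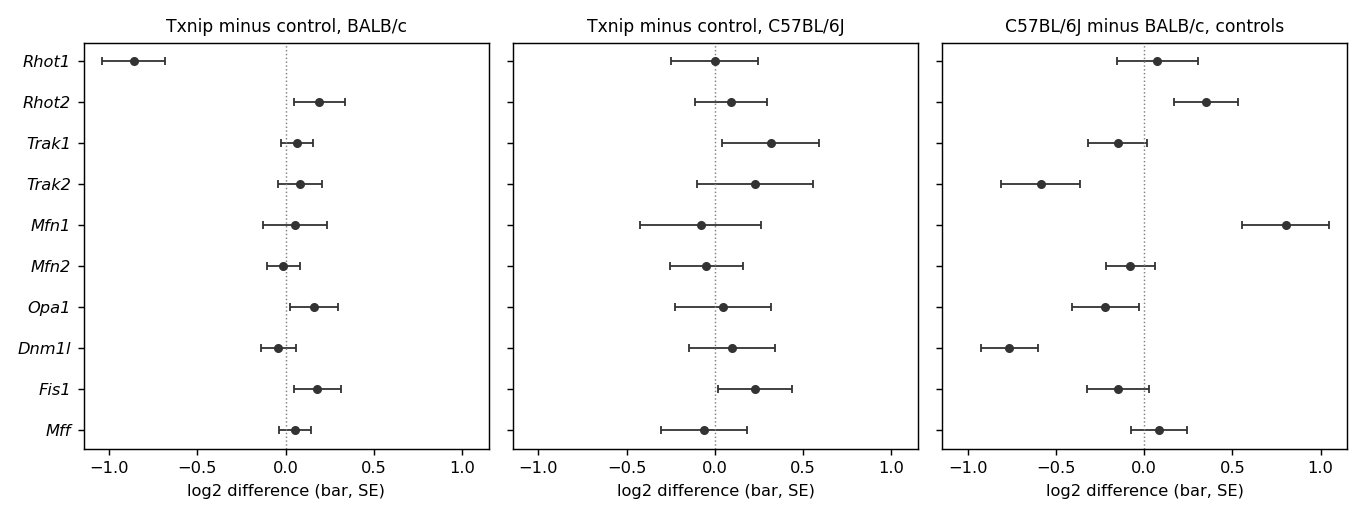
Log2 differences of the 10 members (bars, SE) for Txnip minus control in BALB/c (6 against 6 libraries) and in C57BL/6J (3 against 3), and for C57BL/6J minus BALB/c control cones (3 against 6). Rhot1 at -0.86 stands apart in the first panel, no gene does in the second, and Dnm1l at -0.76 and Mfn1 at 0.80 lie at the ends of the third.

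The strains were then compared in control cones, from retinas that received no Txnip vector. This asks how the members stood in day 35 C57BL/6J cones against day 21 BALB/c cones. Of the 14751 genes tested, 17.5% were called (2588 genes, or 1605 without C57BL/6J control 3), 8.03% higher and 9.52% lower in C57BL/6J. Of the 9 members other than Rhot1, 2 were called, Dnm1l lower and Mfn1 higher, so the share of members called was near that of all genes. This count rests on few libraries: it was 1 without BALB/c control 2, BALB/c control 3, C57BL/6J control 1 or C57BL/6J control 3, and 4 without C57BL/6J control 2. DESeq2 called 2 members as well, against 15.4% of the genes it tested.

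Dnm1l, the fission dynamin, had 97, 154 and 123 CPM in C57BL/6J control libraries 1 to 3 and a lowest, median and highest level of 189, 207 and 263 CPM in BALB/c controls. All 3 C57BL/6J controls lay below all 6 BALB/c controls, as did 9.66% of all genes, while 8.98% of all genes and 0 of the members lay wholly above. The log2 difference was -0.76 (SE 0.16, adjusted p = 0.0020 by edgeR), or 0.589 of the BALB/c level. In Txnip cones, which are other libraries, Dnm1l had 112, 127 and 160 CPM in C57BL/6J and a lowest, median and highest level of 153, 214 and 223 CPM in BALB/c, and the log2 difference was -0.62 (SE 0.16, adjusted p = 0.0095 by edgeR). Here the ranges overlapped, because of BALB/c Txnip 6. Across Txnip cones 17.6% of genes were called, 8.24% higher and 9.38% lower in C57BL/6J. Without the pair of libraries with high rod marker shares the difference was -0.63 in control cones (adjusted p = 0.013) and -0.60 in Txnip cones (adjusted p = 0.015), both by edgeR.

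Mfn1, the less abundant mitofusin, had 53.7, 21.5 and 40.2 CPM in C57BL/6J controls and a lowest, median and highest level of 13.6, 23.9 and 27.4 CPM in BALB/c controls. Library 2 of the C57BL/6J controls lay within the BALB/c range and the other 2 lay above it. The log2 difference was 0.80 (SE 0.25, adjusted p = 0.028 by edgeR). The highest library, control 1, was one of the pair with high rod marker shares, and without that pair the difference was 0.47 (SE 0.26) and was not called (adjusted p = 0.23). It was also not called without C57BL/6J control 1 alone (0.48, adjusted p = 0.25), BALB/c control 2 (0.70, adjusted p = 0.057), BALB/c control 3 (0.72, adjusted p = 0.062) or C57BL/6J control 3 (0.77, adjusted p = 0.096), all by edgeR. With the rod marker share as a covariate it was 0.53 (adjusted p = 0.11 by edgeR). All 9 rod markers had counts in every library, and 4 of them were called higher in C57BL/6J controls. The Müller glia and bipolar marker shares were also highest in that pair of libraries, and the part of other cells in the Mfn1 difference was not tested beyond these values. In Txnip cones Mfn1 had 47.7, 33.0 and 28.8 CPM in C57BL/6J, above the 18.6 to 28.3 CPM of BALB/c (as in 8.2% of all genes), with a difference of 0.67 (SE 0.25) that was not called (adjusted p = 0.071 by edgeR).

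**Figure D4:**
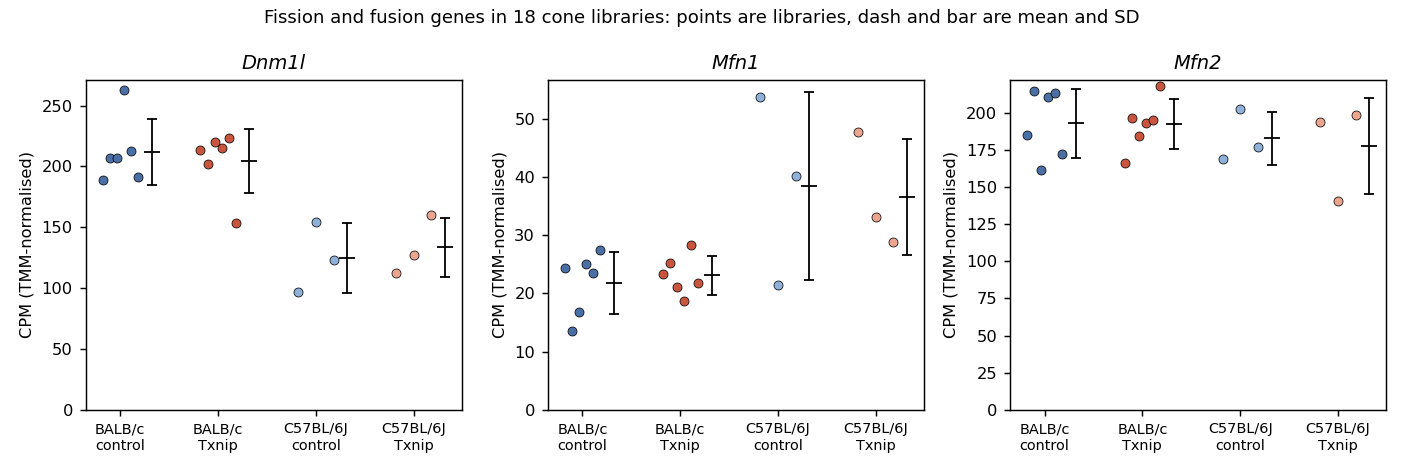
CPM of Dnm1l, Mfn1 and Mfn2 in each of 18 libraries by group, with the mean and SD beside the points. Dnm1l runs from 97 to 160 CPM in the 6 C57BL/6J libraries and from 153 to 263 CPM in the 12 BALB/c libraries, Mfn1 is scattered in C57BL/6J, and Mfn2 overlaps in all 4 groups.

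Among the other 8 members, Trak2 had a log2 difference of -0.59 (SE 0.22) and was not called (adjusted p = 0.075 by edgeR). Single libraries moved this value: it was -1.01 without C57BL/6J control 2 (adjusted p = 0.0032) and -0.32 without C57BL/6J control 1. In Txnip cones it was -0.43 (SE 0.22, adjusted p = 0.19 by edgeR). Trak1 differed by -0.15 (SE 0.17, adjusted p = 0.59 by edgeR) in control cones and by 0.10 (SE 0.16, adjusted p = 0.72 by edgeR) in Txnip cones. Without C57BL/6J control 2, the Trak1 difference in control cones was -0.54 and was called (adjusted p = 0.013 by edgeR).

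Rhot1 had a log2 difference of 0.076 between the control cones of the strains (SE 0.23), given as a description since the BALB/c control values took part in its choice. Rhot2 had a difference of 0.35 (SE 0.18), which was not called (adjusted p = 0.19 by edgeR). Mfn2 differed by -0.077 (95% interval -0.36 to 0.21), Opa1 by -0.22 (-0.61 to 0.17), Fis1 by -0.15 (-0.52 to 0.22) and Mff by 0.085 (-0.24 to 0.41), and none of the 4 was called. In Txnip cones Rhot1 was 0.95 higher in C57BL/6J than in BALB/c (SE 0.23), which again holds the BALB/c Txnip values that chose it.

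The balance of fission to fusion genes, as the per-length sum of Dnm1l, Fis1 and Mff over that of Mfn1, Mfn2 and Opa1 in each library, was 2.44 ± 0.373 in BALB/c controls and 2.52 ± 0.316 with Txnip (SD, n = 6 each). In C57BL/6J it was 1.96 ± 0.275 in controls and 2.22 ± 0.101 with Txnip (SD, n = 3 each). The ranges overlapped between Txnip and control in each strain and between the control cones of both strains. The ratio of Mfn2 to Mfn1 per length was 11.2 ± 3.92 in BALB/c controls and 6.67 ± 3.93 in C57BL/6J controls. The ratio of Dnm1l to Mff was 2.20 ± 0.244 in BALB/c controls, with a range of 1.97 to 2.59, and 1.26 ± 0.481 in C57BL/6J controls, with a range of 0.966 to 1.82 that lay below it. In Txnip cones the ranges of this ratio, 1.52 to 2.52 in BALB/c and 0.865 to 1.75 in C57BL/6J, overlapped.

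The genes that work with the members were covered by 7 lists with 105 genes, of which 101 were tested. With Txnip, 0 of them were called in BALB/c (11 at an unadjusted p under 0.05, or 10.9%, against 11.4% of all genes) and 0 in C57BL/6J (0 at an unadjusted p under 0.05, against 0.748% of all genes), beside 2 genes called in each strain over all genes. Between control cones of the strains, 15 were called, 5 higher and 10 lower in C57BL/6J, which is 14.9% against 17.5% of all genes. The list of motors and adaptors had 8 of 28 tested genes lower (28.6%, against 9.52% of all genes), 0 higher and a median log2 difference of -0.32 against -0.0012 over all genes. In Txnip cones 17 of the 101 genes were called (16.8% against 17.6% of all genes). Of the motors and adaptors 7 were lower there (25.0%, against 9.38% of all genes) and 0 higher. These were 6 of the 8 genes called in control cones and the dynactin gene Dctn2 (-0.37, adjusted p = 0.048 by edgeR), which was not called in control cones (-0.21, adjusted p = 0.28 by edgeR).

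Of the kinesin heavy chains that Trak adaptors bind, Kif5a had 52.1 to 79.4 CPM in BALB/c controls and 6.10 to 18.7 CPM in C57BL/6J controls, a log2 difference of -2.45 (SE 0.37, adjusted p = 6.9e-05 by edgeR). Kif5b, the form found in most cell types, ran from 105 to 135 CPM in BALB/c controls and from 51.2 to 89.9 CPM in C57BL/6J controls (-0.86, SE 0.17, adjusted p = 0.0013 by edgeR). Kif5c differed by -1.54 (SE 0.40) with overlapping ranges and was not called without C57BL/6J control 3 (-1.21, adjusted p = 0.079 by edgeR). Kif1b, a kinesin-3 motor of mitochondria and synaptic vesicle precursors, had a mean of 381 ± 74.5 CPM in BALB/c and 197 ± 37.4 CPM in C57BL/6J, a log2 difference of -0.95 (SE 0.20). The others lower were the dynein intermediate chain gene Dync1i1 (-1.93, SE 0.43), the kinesin adaptor genes Fez1 (-1.37, SE 0.29) and Sybu (-1.52, SE 0.51), and the dynein light intermediate chain gene Dync1li2 (-0.54, SE 0.16). Dync1li2 was not called without the pair with high rod marker shares (-0.41, adjusted p = 0.0999) or in Txnip cones (-0.29, adjusted p = 0.22), both by edgeR. Sybu was called by a narrow margin (adjusted p = 0.042 by edgeR) and was not called in Txnip cones (-1.17, adjusted p = 0.11 by edgeR) or when any 1 of 9 libraries was left out. Single libraries moved 3 of these values: without C57BL/6J control 1 the differences were -3.11 for Dync1i1, -2.71 for Kif5c and -2.85 for Sybu, and without C57BL/6J control 2 they were -1.49, -1.17 and -1.12.

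Several of these motor genes are also expressed by inner retinal neurons. The ganglion and amacrine marker lists had lower summed shares in C57BL/6J controls as well. Of the bipolar and horizontal cell markers, 0 of 8 and 0 of 4 were called in either direction. The bipolar share was 0.0112% to 0.0141% in BALB/c controls and 0.0057% to 0.0392% in C57BL/6J controls. The horizontal cell share was 0.0026% to 0.0088% and 0.0015% to 0.0042%, so both overlapped. All 6 ganglion cell markers were lower in C57BL/6J controls, with a summed share of 0.0424% to 0.121% of counts in BALB/c controls and 0.0023% to 0.0116% in C57BL/6J controls, where Pou4f2 was at 0 in all 3 libraries. Of 8 amacrine cell markers 5 were called lower and 0 higher, with a summed share of 0.0392% to 0.0603% in BALB/c controls and 0.0113% to 0.0376% in C57BL/6J controls. The BALB/c Txnip cones had 0.0472% to 0.134% on the ganglion list, and the C57BL/6J Txnip cones had 0.0059% to 0.0086%. The part of these cells in the motor gene differences, and in that of Dnm1l between the same groups, was not tested.

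Of the mitophagy list, 4 of 14 tested genes were called (28.6%, against 17.5% of all genes), 3 higher in C57BL/6J controls and 1 lower, against 8.03% and 9.52% of all genes. Pink1, the kinase that marks damaged mitochondria and acts on Miro, was higher by 1.05 (SE 0.22, adjusted p = 0.0015 by edgeR), with 23.5 to 33.5 CPM in BALB/c and 48.0 to 74.0 CPM in C57BL/6J controls. In Txnip cones it was higher by 1.27 (SE 0.22, adjusted p = 0.00024 by edgeR). Sqstm1, the p62 autophagy receptor gene, was lower, with a log2 difference of -0.75 in control cones (SE 0.16) and -1.19 in Txnip cones (SE 0.17). Ulk1, an autophagy kinase, differed by 0.71 (SE 0.21, adjusted p = 0.023 by edgeR), but by 0.43 without the pair with high rod marker shares (adjusted p = 0.21) and by 0.55 in Txnip cones (adjusted p = 0.073), where it was not called. Bcl2l13, an outer membrane mitophagy receptor, likewise differed by 0.43 (SE 0.14, adjusted p = 0.042 by edgeR), and by 0.39 without that pair (adjusted p = 0.12), and was called in Txnip cones (0.48, adjusted p = 0.025 by edgeR). In Txnip cones 4 of the 14 were called as well, with Vps13d (0.86, adjusted p = 0.0047 by edgeR) in place of Ulk1. Slc25a46, an outer membrane protein gene of the fission list, was lower, at -0.65 (SE 0.14) in control cones and -0.94 (SE 0.15) in Txnip cones. Of the outer membrane import list, 2 of 11 tested genes were called (18.2%), both higher in C57BL/6J controls (against 8.03% of all genes), and 0 of 11 in Txnip cones. Tomm20, an import receptor, differed by 0.44 (SE 0.14, adjusted p = 0.038 by edgeR) in control cones and by 0.40 in Txnip cones (adjusted p = 0.058 by edgeR). Tomm22, of the import channel, was higher by 0.69 (SE 0.17) but was not called without C57BL/6J control 3 (0.48, adjusted p = 0.098 by edgeR) or in Txnip cones (0.47, adjusted p = 0.061 by edgeR). The lists of MICOS genes, fusion factors and biogenesis genes had 0 called of 9, 13 and 12 tested, against 17.5% of all genes. At an unadjusted p under 0.05 by edgeR they had 1 (11.1%), 3 (23.1%) and 0, against 28.7% over the 7 lists together. The share over all genes at that cut is not given here. In Txnip cones 0 of the MICOS genes, 3 of the 13 fusion factors (23.1%) and 2 of the 12 biogenesis genes (16.7%) were called, against 17.6% of all genes. The fusion factors were the inner membrane protease genes Spg7 (0.54) and Afg3l2 (0.90), both higher in C57BL/6J, and Yme1l1 (-0.55), which was lower. The biogenesis genes were the coactivator gene Ppargc1a (0.45), higher, and the mitochondrial RNA polymerase gene Polrmt (-0.59), lower.

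**Figure D5:**
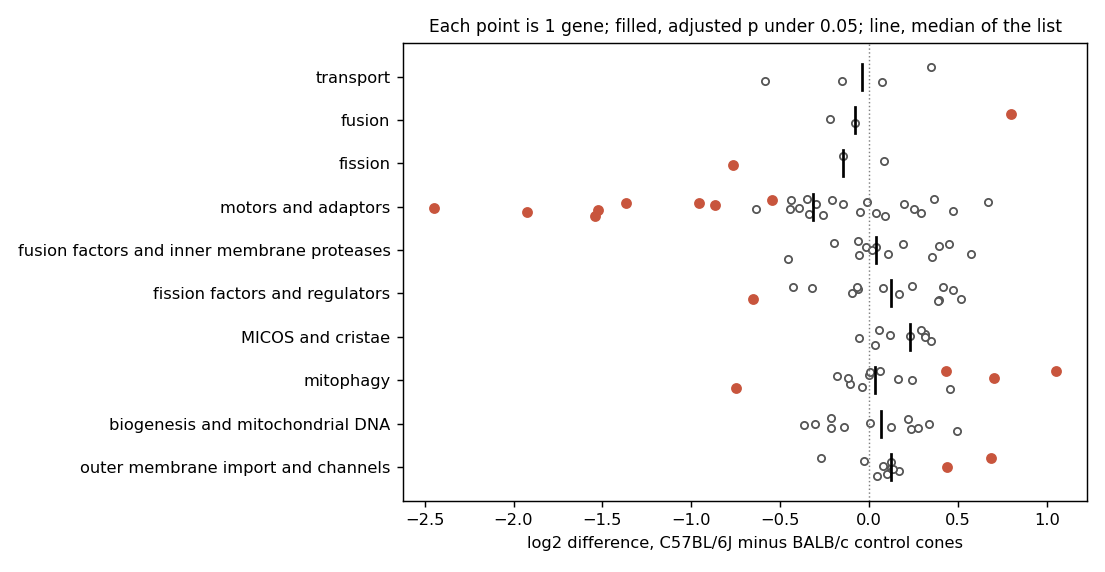
Log2 differences between C57BL/6J and BALB/c control cones for the members (upper 3 rows) and the 7 lists of related genes, with 1 point a gene, filled where called, and a line at each list's median. The 8 filled points of the motors and adaptors all lie below 0, from -2.45 to -0.54, and those of the mitophagy list lie on both sides.

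The genes whose pattern was most like that of Rhot1 were found by the root mean square difference in log2 CPM, each gene centred on its own mean, over the 18 libraries and 14750 other genes. Among the nearest were Fbxo9 (0.175), Rab28 (0.186), Htatsf1 (0.190) and Mlf2 (0.204), where the median over all genes was 0.709. The nearest other member was Mfn2 at 0.587, and the farthest was Trak2 at 0.814. Rab28, a small GTPase of the photoreceptor cilium, had a lowest, median and highest level of 118, 134 and 151 CPM in BALB/c controls and 34.7, 56.3 and 121 CPM with Txnip, and 103, 134 and 161 CPM in C57BL/6J controls. In BALB/c Txnip libraries 1 to 6, Rab28 had 121, 103, 55.3, 34.7, 54.8 and 57.3 CPM. Fbxo9 had 177, 169, 71.3, 53.3, 85.8 and 72.8 CPM there, and Mlf2 had 253, 218, 133, 120, 134 and 143 CPM. Libraries Txnip 1 and 2 were thus the highest, as for Rhot1. Since these genes were picked for likeness to Rhot1, their lower BALB/c Txnip values are part of the choice and add no test.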

How the data were processed

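RNA-seq libraries of sorted cones from BALB/c (6 control, 6 Txnip) and C57BL/6J (3 control, 3 Txnip) retinas were analysed, grouped by the sample labels. The deposited files hold raw counts of read pairs for 54532 genes per library, made by the authors with featureCounts 1.6.2 from exons in Ensembl 94 (GRCm38). STAR is named as the aligner in the submitters' processing notes. Chimeric pairs were left out, a pair was counted for every gene it overlapped, and strand was not used. Tables of the authors' own comparisons (fold changes and p-values by DESeq2) were not used here.

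The tests used edgeR 4.0.16 in R 4.3.3 (filterByExpr, TMM, glmQLFit, glmQLFTest, Benjamini-Hochberg adjustment over all genes tested, threshold 0.05), in each strain on its own for Txnip and in 1 fit of all 4 groups for the strains. SEs were derived from the F statistic. Depth was 647712 to 5172156 summed counts per library. Simulated counts in which 200 genes were changed served to check the scripts. The members and lists were chosen with earlier results of these data known. The text names the 10 members, Txnip, the called pathway genes of the strain comparison (at most 12 with the largest differences, besides Dync1li2, Bcl2l13, Tomm20 and the genes of these lists called between strains in Txnip cones and not in control cones, named to complete counts after their values were seen), and the 5 genes nearest to Rhot1, of which 1 is not reported here. The comparison of strains in Txnip cones, the fits without the pair of libraries with high rod marker shares and the rod share without Sag were chosen after seeing the data. Copies of members were searched with BLAST among GENCODE M21 transcripts (at least 300.0 bases and 90% identity). Alternatives were DESeq2 1.42.0, its size factors in edgeR, other count filters, robust estimation, a replicate block, other sets of libraries in the fit, the rod or ribosomal RNA share as a covariate, both of ribosomal RNA and mitochondrial genes left out, a threshold of 0.1 and each library left out. The log2 CPM of the likeness measure used a prior count of 2.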

Additional observations from a re-analysis of the deposited data

Results flagged for a closer look

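In groups of 6 libraries, a library was picked out when its gap to the nearest other library was a large part of the group's range (Dixon's 95% value), which chance does in about 1 of 20 groups. Over the genes named in the text 54 groups were examined and 3 libraries were picked out, a number that chance alone could give. For Dnm1l, BALB/c control 4 at 263 CPM lay above the other 5 controls at 189 to 213 CPM. Also for Dnm1l, BALB/c Txnip 6, the shallowest library, at 153 CPM lay below the other 5 Txnip libraries at 202 to 223 CPM. Leaving out BALB/c control 4 moved the strain difference of Dnm1l in control cones to -0.71 and kept it called. For Ulk1, BALB/c Txnip 3 at 21.1 CPM lay below the other 5 Txnip libraries at 32.8 to 37.2 CPM.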

How the results depend on the processing

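Dnm1l was called lower in C57BL/6J control cones under all 30 alternatives, with values of -0.97 to -0.63 when 1 library was left out. Rhot1 in BALB/c moved by less than the spread between libraries under all 24 alternatives and ran from -1.02 (without Txnip 1) to -0.76 (without Txnip 4) when 1 library was left out, and to -0.74 with the ribosomal RNA share as a covariate. Mfn1 was not called between strains in 8 of 30 alternatives, including a fit of control libraries only (0.79, adjusted p = 0.064 by edgeR). The number of members called between strains was 1 in the fit of control libraries only, with the rod marker share as a covariate and without the pair with high rod marker shares, and 1 to 4 when a library was left out (4 without C57BL/6J control 2). Trak2 was called with all genes of at least 1 count, with at least 10 counts in every library, with the ribosomal RNA share or the rod share without Sag as a covariate, and at a threshold of 0.1.

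Over all genes, the calls for Txnip in BALB/c were 77 by DESeq2 (19 higher and 58 lower), 1400 with all genes of at least 1 count (165 higher and 1235 lower), 0 with at least 10 counts in every library (961 genes at an unadjusted p under 0.05), and 2 to 258 when a library was left out, with 258 without Txnip 1 (16 higher and 242 lower), 23 without control 1 and 6 without Txnip 2. In C57BL/6J they were 5 and 0 (85 at an unadjusted p under 0.05) under the first and the second of these filters. Between strains they were 1507 with at least 10 counts and 1605 to 2930 when a library was left out (1605 without C57BL/6J control 3). For the difference between strains in the Txnip effect they were 186 with all genes of at least 1 count, 2 without the pair with high rod marker shares and 0 to 1 when a library was left out (1 without C57BL/6J control 1). The filter of at least 10 counts in every library leaves out Txnip itself, which had 0 to 3 counts in each control library. Beyond this, the causes were not tested.

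Small differences in C57BL/6J changed sign. With Txnip these were Mfn1 (0.0099 with the rod share, 0.27 with the ribosomal RNA share, 0.00045 with the rod share without Sag, 0.29 without the pair), Mfn2 (0.031 without the pair), Dnm1l (-0.049 with the ribosomal RNA share, -0.036 without the pair), Mff (0.060 and 0.081 likewise) and Rhot1 (0.00069 with at least 10 counts, 0.0065 in 1 fit of 4 groups, 0.020 with the ribosomal RNA share, 0.12 without the pair). Leaving out 1 library gave -0.37 to 0.24 for Mfn1, -0.16 to 0.068 for Mfn2, -0.14 to 0.18 for Opa1, -0.091 to 0.28 for Dnm1l, -0.29 to 0.079 for Mff, -0.14 to 0.18 for Rhot1, -0.037 to 0.14 for Rhot2 and -0.056 to 0.64 for Trak2. Between strains Mfn2 was 0.010 with the rod share without Sag and Trak1 0.010 without the pair, and leaving out 1 library gave -0.061 to 0.18 for Mff and -0.54 to 0.011 for Trak1.

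Replicate numbers are shared between groups but did not pair the libraries: deviations of libraries with the same number correlated at -0.11 to 0.10. With the replicate number as a block BALB/c had 3 calls, C57BL/6J had 2 and 0 members, and the Rhot1 difference in BALB/c was -0.94. Only 1 of 9 control libraries correlated best with the Txnip library of its own number.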
